A study of Mus musculus with 3 samples.

Results

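Binding of nuclear factor I (NFI) was compared between wild-type mouse embryonic fibroblasts (MEF) and NFI-C knock-out MEF over broad stretches of the mouse genome. The members of the comparison were fixed windows of 50 kb on chromosomes 1 to 19 of mm9, starting at position 1 of each chromosome, that held at least 20 tags of the input library. There were 46982 such windows of 49453 in all, and 2471 windows were left out. A tag is the 5′ end of a uniquely mapped read, and at most 1 tag was counted per position and strand. The comparison used 2 of the 3 libraries of the study, which are NFI ChIP in wild-type MEF and NFI ChIP in NFI-C knock-out MEF, while the third library, wild-type input DNA, set the window minimum and is given as background.

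All cells were primary MEF of strain C57BL/6, taken from embryos of 14.5 days and grown to passage 6 to 7. Per library, chromatin of about 20000000 cells was cross-linked with formaldehyde, sonicated and, for the ChIP libraries, precipitated with the antibody H300 (sc-5567), whose target is any member of the NFI family and not NFI-C alone. The input had no antibody step, and no input of knock-out cells was used here. The knock-out allele came from insertional mutagenesis, and the position of the insertion in Nfic is not given in the sources used here. The title of the knock-out library names NFI-C knock-out cells, whereas its description line names wild-type cells, and the title was followed. Each condition had 1 library, so every value describes these libraries, no test across samples was possible, and the 95% intervals cover counting error only.

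NFI proteins form a family of transcription factors encoded in vertebrates by Nfia, Nfib, Nfic and Nfix. They bind as dimers to a palindrome made of a TTGGC core and its reverse complement, and they were first known as factors for adenovirus replication and for transcription of cellular genes. Because the antibody recognizes the group, the knock-out library can still hold DNA bound by the other family members.

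The sequences that carry the consensus are few, and the 6 shown here are the exact matches to TTGGCANNNTGCCAA with the most ChIP tags of both libraries within 150 bp, of 143 exact matches that were considered for display. Capitals mark the 12 fixed positions of the palindrome, and each run gives 31 bases of the plus strand of mm9.

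Crybg3 site, chr16:59548370-59548400: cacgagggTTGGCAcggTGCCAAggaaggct
Kcnip4 site, chr5:49920734-49920764: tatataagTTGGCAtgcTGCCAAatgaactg
6430527G18Rik site, chr12:88235432-88235462: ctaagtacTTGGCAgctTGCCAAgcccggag
Fxyd5 site, chr7:31802601-31802631: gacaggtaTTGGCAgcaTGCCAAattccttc
Limd1 site, chr9:123424099-123424129: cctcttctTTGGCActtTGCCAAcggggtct
Nfia site, chr4:97443189-97443219: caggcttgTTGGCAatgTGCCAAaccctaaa

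The sites at Crybg3 and Limd1 lay inside those genes, and the site at Nfia lay inside Nfia and the overlapping gene E130114P18Rik. The sites named for Kcnip4, 6430527G18Rik and Fxyd5 lay 4802, 9676 and 15118 bp from the nearest protein-coding gene. Within 150 bp, the Crybg3 site held 6 wild-type and 6 knock-out tags with 1 input tag. The Kcnip4 site held 4 wild-type and 7 knock-out tags with no input tag. The Limd1 site held 5 wild-type and 4 knock-out tags with 1 input tag. The 6430527G18Rik site held 7 and 4 with 3 input tags, the Fxyd5 site 4 and 6 and the Nfia site 2 and 6, both with no input tag. The 6 sites summed to 28 wild-type and 33 knock-out tags, a ratio of 1.26 (0.739 to 2.17), and having been chosen for their tags they do not stand for the other palindromes. The 50 kb windows around the 6 sites had depth-scaled knock-out over wild-type ratios between 0.977 and 1.284.

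The wild-type ChIP library held 14358325 reads and the knock-out ChIP library 16330049, of which 68.1% and 66.3% mapped to a single place. After the limit of 1 tag per position and strand, there remained 3353464 tags of the wild-type ChIP library, 3134869 of the knock-out ChIP library and 4105822 of the input. The mean number of unique reads behind a distinct tag was 2.92 for wild-type, 3.45 for knock-out and 1.32 for input, so the knock-out library held fewer distinct tags from more reads. The eligible windows held 3181132 wild-type tags and 2972459 knock-out tags, a mean of 67.7 and 63.3 per window, beside 83.3 input tags. All ratios below are knock-out over wild-type and were divided by the ratio of these totals, 0.934, so that a ratio of 1 means the same share of each library.

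Few 50 kb windows differed strongly between the libraries. A ratio of 2 or more was found in 135 of the 46982 windows (0.287%) and a ratio of 1/2 or less in 141 (0.3%). The exact binomial interval of the ratio lay above 1 in 2836 windows (6.04%) and below 1 in 2916 windows (6.21%), where the scaling by the totals places the middle of the windows near 1. Past 2-fold in either direction were 276 windows (0.587%). The log2 ratio had an SD of 0.349 over windows, where counting error alone gives 0.265, and its variance was 1.74 times that of counting.

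Relative to counting error, the spread was smaller with tags of a single strand. With tags of the plus strand only, the variance of the window ratio was 1.07 times that of counting error, and with the minus strand only it was 1.08 times. A plus-strand tag had a minus-strand tag facing it 50 to 400 bp downstream in 68.5% of cases in the wild-type ChIP and 70.3% in the knock-out ChIP, where the same distance in the opposite direction gave 23.3% and 22.1%. In the input the corresponding values were 35.0% and 29.2%. Facing tags were thus more frequent than tags in the opposite direction by a wide margin in both ChIP libraries and by a small one in the input. Intervals for sums over windows were widened 1.32 times, to match the variance between windows of 50 kb. Those of single windows, blocks and genes were not widened and are too narrow for that variance.

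Of the 6 windows with the highest lower bound of the ratio, the first lay on chromosome 17 from 27000001 to 27050000, 4036 bp from Kifc5b, a kinesin gene, with 52 wild-type and 123 knock-out tags against 79 input tags and a ratio of 2.53 (1.82 to 3.57). A window on chromosome 9 with the olfactory receptor gene Olfr836 had 28 wild-type and 72 knock-out tags, a ratio of 2.75 (1.76 to 4.42). A window on chromosome 4 over Bsdc1, Tssk3, Marcksl1 and Hdac1, the last encoding a histone deacetylase, had 41 and 96 tags, a ratio of 2.51 (1.72 to 3.71).

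Windows inside Kcnq1, which encodes a potassium channel, and inside Accn1, which encodes an acid-sensing ion channel, also belonged to this end. The Kcnq1 window on chromosome 7 had 47 wild-type and 103 knock-out tags, a ratio of 2.35 (1.65 to 3.39), and the Accn1 window on chromosome 11 had 34 and 79 tags, a ratio of 2.49 (1.64 to 3.83). The sixth window, on chromosome 11, held no gene and had 31 and 77 tags, a ratio of 2.66 (1.73 to 4.17). Its nearest gene, Glra1 for a glycine receptor subunit, lay 128301 bp away.

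At the other end, 5 of the 6 windows held no protein-coding gene, as did 42.4% of all windows. The window on chromosome 6 from 74250001 to 74300000 had 84 wild-type and 26 knock-out tags against 85 input tags, a ratio of 0.331 (0.205 to 0.520), and its nearest protein-coding gene was 830340 bp away. A second window of chromosome 6, 48579 bp from Naa38, had 65 and 19 tags and a ratio of 0.313 (0.177 to 0.528). The window inside Odz2, a large teneurin gene expressed in the nervous system, had 74 and 25 tags and a ratio of 0.362 (0.220 to 0.576). The windows on chromosomes 13, 18 and 10 had ratios of 0.332, 0.351 and 0.368.

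The fullest stretch of 300 bp in any of the 12 windows held 7 tags, a stretch with 7 knock-out, 0 wild-type and 1 input tags in the Kifc5b window. The knock-out tags of the Kifc5b window fell in 74 stretches of 300 bp and the wild-type tags in 39. Both neighbours were also above 1 at 3 of the 6 windows higher in the knock-out library, those near Kifc5b (1.07 and 1.24), at Olfr836 (1.20 and 1.504) and nearest to Glra1 (1.59 and 1.68), and the neighbours of all 6 ran from 0.805 to 1.68. Both neighbours were also below 1 at 1 of the 6 windows higher in the wild-type library, that of Odz2 (0.841 and 0.944), and the neighbours of all 6 ran from 0.535 to 1.62. The share of all windows with both neighbours on the same side of 1 was not counted, so these counts do not show broader stretches. Of all single windows 49.8% were above 1. Across the genome the log2 ratios of adjacent windows had a correlation of 0.0435 over 46739 pairs, as a description, since windows share both libraries.

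Over 1 Mb blocks of 20 windows the ratio stayed close to 1. The 2369 blocks with at least 10 eligible windows had ratios from 0.791 to 1.288, and 5 blocks lay above 1.2 and 8 below 1/1.2. The SD of the log2 ratio was 0.0943, where counting error gives 0.0578. The variance was 2.63 times that of counting at 1 Mb and 4.02 times at 5 Mb, where the ratio ran from 0.880 to 1.110. When each window's knock-out tags were set against those expected from its G and C content, these factors were 2.21 and 2.49.

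**Figure D1:**
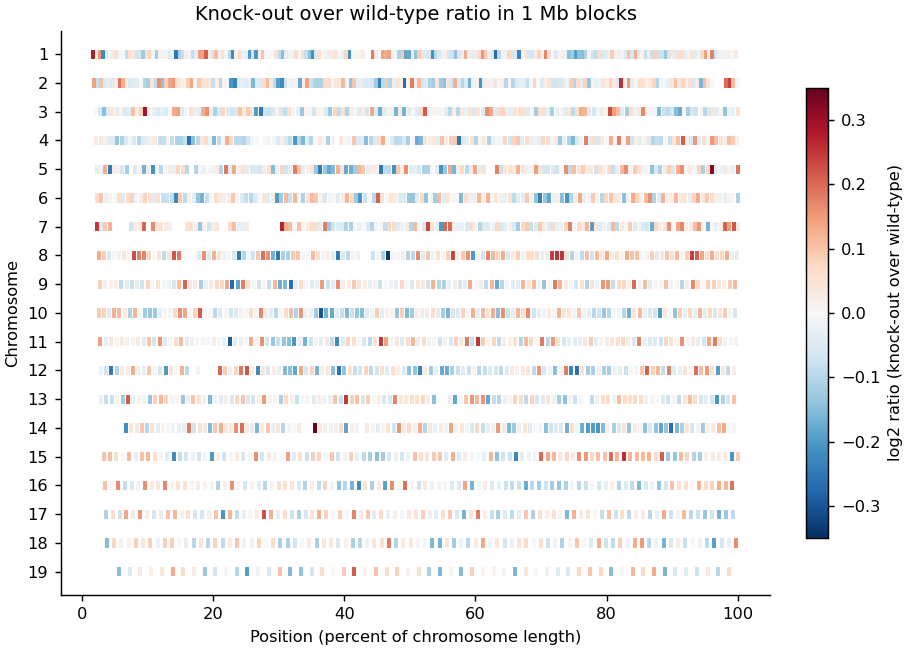
Depth-scaled log2 knock-out over wild-type ratio of NFI ChIP tags in 1 Mb blocks, with the position as percent of chromosome length on the x axis, the chromosome on the y axis and the ratio as colour (red, knock-out higher; blue, wild-type higher). The 2369 blocks had an SD of 0.0943 on the log2 scale, and blocks of both colours were found on every chromosome.

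The 5 blocks with the highest lower bound lay on chromosomes 1, 3, 5, 14 and 15. The block of chromosome 5 from 146 to 147 Mb, with a group of Cyp3a genes that encode cytochrome P450 enzymes, held 584 wild-type and 683 knock-out tags, a ratio of 1.25 (1.12 to 1.40), and 12 of its 17 eligible windows were above 1. The block of chromosome 3 from 15 to 16 Mb, with Sirpb1a, Sirpb1b and Sirpb1c for signal-regulatory receptors, had 762 and 874 tags and a ratio of 1.23 (1.11 to 1.35). The block with the Ear genes for eosinophil-associated ribonucleases and with Ang5 and Ang6, on chromosome 14, had 319 and 384 tags over 13 windows and the highest ratio, 1.29 (1.11 to 1.499). These 3 blocks had only 17, 18 and 13 of their windows eligible.

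The other two were fully eligible. The block of chromosome 1 from 3 to 4 Mb, with Xkr4, had 1049 wild-type and 1185 knock-out tags and a ratio of 1.21 (1.11 to 1.31). The block of chromosome 15 from 85 to 86 Mb held Fbln1 for the matrix protein fibulin-1, Wnt7b for a secreted signal, Ppara for a nuclear receptor of lipid metabolism, and Celsr1 for an adhesion receptor. It had 1342 and 1499 tags, a ratio of 1.20 (1.11 to 1.29), and its ratio over the tags expected from G and C content was 1.15.

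The 5 blocks with the lowest upper bound held at most 2 protein-coding transcription start sites each, as did 29.5% of the 2369 blocks. The block of chromosome 8 from 61 to 62 Mb, with Galntl6, held 1266 wild-type and 936 knock-out tags against 1273 input tags, a ratio of 0.791 (0.726 to 0.862), and 16 of its 20 windows were below 1. The blocks on chromosomes 10 and 11 held no protein-coding gene and had ratios of 0.813 and 0.815. The block on chromosome 9 lay within Opcml and Ntm, which encode neural cell adhesion molecules, and had 1281 and 991 tags and a ratio of 0.828. The block on chromosome 14 with Slitrk5, a gene for a neuronal membrane protein, had 1337 and 1039 tags and a ratio of 0.832. Against the expectation from G and C content the 5 ratios were 0.836, 0.853, 0.840, 0.830 and 0.878.

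Whole chromosomes differed by a few percent at most. Chromosome 8 had the highest ratio, 1.026 (1.017 to 1.036), from 166576 wild-type and 159768 knock-out tags, and chromosome 12 the lowest, 0.983 (0.974 to 0.993), from 147531 and 135515 tags. The highest over the lowest was 1.044 (1.034 to 1.055 by counting error), a value above 1 by construction. Its interval was not widened and takes no account of the choice of the extremes. The ratio was within 1% of 1 on 13 of the 19 chromosomes and within 3% on all 19.

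Chromosomes 7, 8, 11 and 15 had intervals above 1 and chromosomes 4 and 12 had intervals below 1. Chromosome 7 was at 1.016, chromosome 15 at 1.015, chromosome 11 at 1.010 and chromosome 4 at 0.989. The remaining 13 chromosomes had intervals that included 1. With intervals widened 2.01 times, to match the variance between 5 Mb blocks, only chromosomes 7 and 8 lay above 1 and chromosome 12 below. Against the expectation from G and C content, chromosomes 7 and 11 were at 1.006 and 0.998 and their intervals included 1, while chromosomes 8 and 15 remained above 1 and chromosomes 4 and 12 below, the last 2 not with the intervals widened 2.01 times. With each chromosome divided into 10 parts of equal length, the ratio ran from 0.986 in part 4, counted from the start of the sequence, to 1.017 in part 10. Over the tags expected from G and C content, part 4 was at 0.990 (0.983 to 0.996), part 10 at 1.002 and part 1 at 1.013 (1.005 to 1.021).

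**Figure D2:**
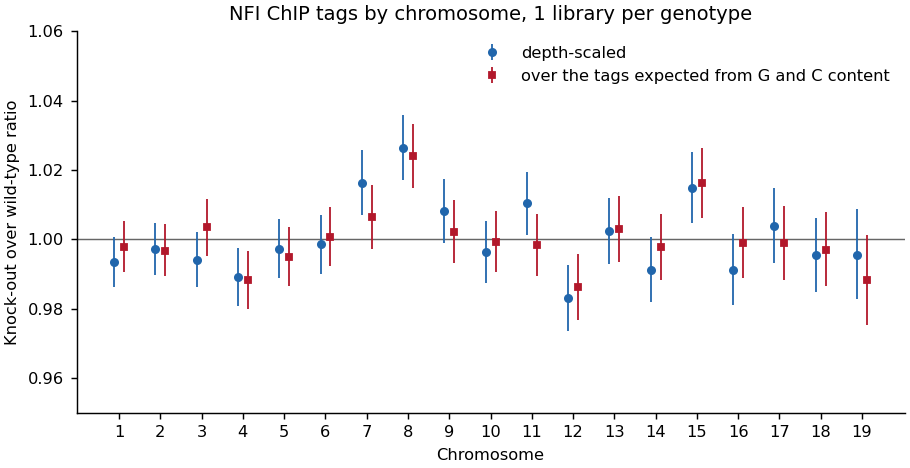
Knock-out over wild-type ratio of NFI ChIP tags on the y axis for chromosomes 1 to 19 on the x axis, depth-scaled (circles) and over the tags expected from G and C content (squares), with 95% intervals widened 1.32 times. The depth-scaled ratios ran from 0.983 on chromosome 12 to 1.026 on chromosome 8.

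The ratio followed the base composition of the windows. It was 0.938 (0.926 to 0.949) in the 1491 windows with less than 36% G and C and increased through 0.985 at 38 to 40%, 1.012 at 42 to 44% and 1.032 at 46 to 48% to 1.070 (1.048 to 1.091) in the 451 windows with 52 to 54%. In the 105 windows with 54% or more it was 1.061 (1.017 to 1.108). Windows with 48% or more had a ratio 1.093 (1.084 to 1.102) times that of windows with less than 38%. Single windows showed little of this, since the Spearman correlation of their log2 ratio with G and C content was 0.116 over 46982 windows, as a description.

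Both ChIP libraries held fewer tags than the input where G and C were frequent, and the slope was steeper in the wild-type library. The wild-type ChIP over input ratio, scaled by depth, was 1.213 below 36% and 0.507 at 54% or more, and the knock-out ChIP over input ratio was 1.137 and 0.538. The number of reads per distinct tag also differed between the libraries, as given above, and its part in the gradient was not tested. When every uniquely mapped read was counted, the contrast of windows with 48% or more against windows below 38% was 1.315 in place of 1.093.

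**Figure D3:**
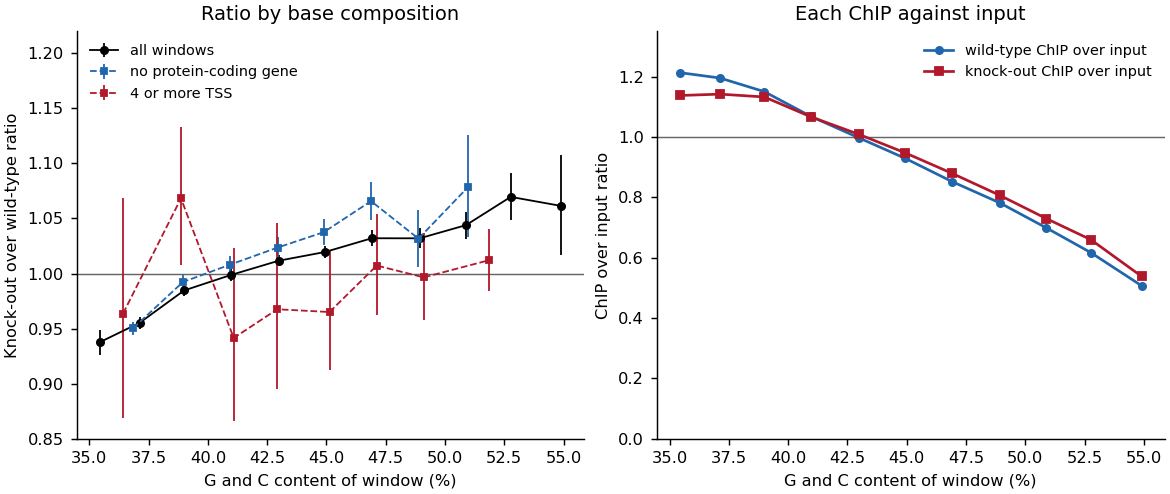
Left, knock-out over wild-type ratio on the y axis against mean G and C content of windows in bins of 2% on the x axis, for all windows and for windows without a protein-coding gene or with 4 or more transcription start sites (TSS), where at least 20 windows fell in a bin, with widened 95% intervals and, for both gene classes, the bins below 38% and from 50% joined. Right, depth-scaled ratio of each ChIP library to input for the same bins, which ran from 1.213 to 0.507 in the wild-type and from 1.137 to 0.538 in the knock-out library.

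Gene content gave small differences, and their direction changed with the account taken of base composition. Protein-coding TSS were taken as the 5′ end of each of 21418 protein-coding genes in GENCODE vM1. The 19919 windows without any protein-coding gene had a ratio of 0.995 (0.992 to 0.998), the 13454 windows inside genes without a TSS 0.997, the 8962 windows with 1 TSS 1.010, the 4066 with 2 to 3 TSS 1.011 and the 581 with 4 or more 1.002 (0.985 to 1.019). The ratio of gene-free windows over that of windows with 4 or more TSS was 0.993 (0.976 to 1.010). Against the expectation from G and C content it was 1.036 (1.018 to 1.055), with 1.008 for gene-free windows and 0.972 (0.956 to 0.989) for windows with 4 or more TSS.

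The same order was seen at matched base composition in the bins from 40% G and C upward. Among windows with 44 to 46% G and C, those without a gene were at 1.038 (1.026 to 1.050), and those with 4 or more TSS at 0.965 (0.912 to 1.021). Below 38% the order of the sums was the opposite, with 0.950 (0.944 to 0.956) without a gene and 0.964 (0.869 to 1.069) in the 23 windows with 4 or more TSS. From 38 to 40% it was also the opposite, with 0.992 (0.986 to 0.999) without a gene and 1.068 (1.007 to 1.133) in the 24 windows with 4 or more TSS. These 24 windows held a mean of 162 wild-type and 201 input tags, against 59.0 and 62.3 in gene-free windows of that bin. Mismatches were found in 35.4% and 6.80% of their wild-type tags. The median ratio of the 24 windows was 0.990, with 11 above 1 and 13 below, and that of the gene-free windows 0.995. Their tags also enter the sum for all windows with 4 or more TSS. Among windows with 42% or more, the ratio of gene-free windows over that of windows with 2 or more TSS was 1.020 (1.010 to 1.030). Below 38% and from 38 to 40% the same contrast was 0.988 (0.958 to 1.018) and 0.977 (0.954 to 1.002), with few windows of 2 or more TSS. These bins held 5904 and 5174 of the 19919 gene-free windows.

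Each ChIP library changed far more across gene classes than the libraries differed from each other. The wild-type ChIP over input ratio was 1.107 in gene-free windows and 0.677 in windows with 4 or more TSS, and the knock-out ChIP over input ratio was 1.101 and 0.678. Gene-free windows, 42.4% of all windows, held 68 windows of ratio 2 or more and 72 of 1/2 or less, which made 50.7% of the windows past 2-fold. Windows with 2 to 3 TSS, 8.65% of all windows, made 5.07% of them. Gene-free windows held fewer tags, with a mean of 62.2 wild-type and 57.8 knock-out tags against 72.6 and 68.6 in windows with 2 to 3 TSS. The part of the tag number in these shares was not tested.

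Genes of the NFI family were followed over their whole length. Over its length Nfia held 758 tags in wild-type and 706 in knock-out cells beside 873 of input, a ratio of 0.997 (0.898 to 1.106), and Nfib held 738, 722 and 798, a ratio of 1.05 (0.944 to 1.16). Nfix held 164, 196 and 324 tags, a ratio of 1.28 (1.03 to 1.58), whereas the 50 kb window with its TSS held 86 wild-type and 72 knock-out tags, a ratio of 0.896 (0.646 to 1.24). The targeted gene, Nfic, on chromosome 10 from 80858931 to 80893750 on the minus strand, had 50 tags in the wild-type and 66 in the knock-out library beside 151 of input, a ratio of 1.41 (0.963 to 2.08). Tags over Nfic do not check the genotype here, since the position of the insertion is not known. Windows with a TSS of the 4 genes summed to a ratio of 1.13 (0.922 to 1.39). With 1 of these windows left out, the sum ran from 1.07 to 1.23, the highest without that of Nfix. Against the expectation from G and C content the 4 windows were at 1.09 (0.890 to 1.35).

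Collagen, matrix and mesenchymal factor genes were followed through the windows that hold their TSS. Collagen genes were taken by symbol, whether or not fibroblasts express them, and lay in 39 windows with a summed ratio of 1.06 (0.995 to 1.14). Of these windows 24 were above 1, where 49.8% of all windows were. The highest was that of Col4a3 and Col4a4, with a ratio of 1.92 (1.44 to 2.57). Col1a1 was at 1.06 (0.793 to 1.42), Col1a2 at 0.879 (0.669 to 1.15) and Col3a1 at 0.850 (0.636 to 1.13). The 14 windows of further matrix genes had a ratio of 1.03 (0.933 to 1.14), with 6 above 1. Lum and Dcn, for the small proteoglycans lumican and decorin, had 74 and 82 wild-type and 89 and 86 knock-out tags. Fn1, for fibronectin, had 120 and 126 tags, and Thbs1, for thrombospondin, 154 and 128.

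Mesenchymal transcription factor genes had a summed ratio of 1.07 (0.966 to 1.18) over 17 windows, with 10 above 1. The window of Zeb2, a repressor of epithelial genes, had 59 wild-type and 82 knock-out tags, a ratio of 1.49 (1.05 to 2.12). The window of Prrx2, a homeobox gene of limb mesenchyme, had 83 and 107 tags, a ratio of 1.38 (1.03 to 1.86). Twist1 had 97 and 80 tags and Twist2 93 and 69. Zeb2 and Prrx2 had the 2 of 17 windows with an interval above 1, beside 6.04% of all windows. Over their whole bodies Zeb2 was at 0.962 (0.805 to 1.15) and Prrx2 at 1.02 (0.717 to 1.46). Over whole gene bodies the collagens had a ratio of 1.02 (0.975 to 1.06), the matrix genes 1.00 (0.910 to 1.10) and the mesenchymal factors 0.976 (0.904 to 1.05). Single collagen bodies ran from 0.702 for Col3a1 to 2.57 for Col10a1, the latter from 5 wild-type and 12 knock-out tags. Of the collagen bodies 25 were above 1 and 16 below.

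Hox genes, which set position along the body axis, gave values on both sides of 1 in 12 windows. The window with Hoxd13 to Hoxd8 and Hoxd3 held 65 wild-type and 86 knock-out tags, a ratio of 1.42 (1.01 to 1.99). The window of Hoxb6 to Hoxb3 held 119 and 86 tags, a ratio of 0.773 (0.579 to 1.03), and that of Hoxc13 to Hoxc10 held 82 and 61, a ratio of 0.796 (0.562 to 1.12). The summed ratio was 0.943 (0.839 to 1.06).

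Replication-dependent histone genes, which are clustered and encode the core and linker histones, lay in 16 windows with a summed ratio of 0.854 (0.770 to 0.947). Of these, 14 windows were below 1 and 2 above, where 50.2% of all windows were below 1. The window of Hist1h2ac, Hist1h2bc, Hist1h1t and Hist1h4c held 104 wild-type and 58 knock-out tags with 107 input tags, a ratio of 0.597 (0.425 to 0.831). The window of Hist4h4 held 103 and 65 tags, a ratio of 0.675 (0.487 to 0.930). These were 2 of 16 windows with an interval below 1, beside 6.21% of all windows, and the windows of Hist1h2aa and Hist1h2bq were at 1.03 and 1.02. Without the window of Hist1h2ac the sum was at 0.874, and against the expectation from G and C content the 16 windows were at 0.844 (0.761 to 0.936).

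Windows with a TSS of long genes of neuronal adhesion and synapses had a summed ratio of 0.881 (0.788 to 0.985) over 18 windows, with 12 below 1. The window of Lrp1b, a large lipoprotein receptor gene, held 92 wild-type and 46 knock-out tags, a ratio of 0.535 (0.367 to 0.770), and that of Ctnna2, an alpha-catenin gene of neurons, 72 and 43 tags, a ratio of 0.639 (0.428 to 0.945). Nrxn3, for a presynaptic neurexin, had 42 and 55 tags in its TSS window. Without the Lrp1b window the sum was at 0.910, and against the expectation from G and C content the 18 windows were at 0.904 (0.809 to 1.011).

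The whole bodies of the same 18 genes, between 580 and 2271 kb long, gave 32656 wild-type and 29204 knock-out tags and a ratio of 0.957 (0.937 to 0.977), with 14 of 18 genes below 1. Of all 19950 protein-coding gene bodies with tags 48.3% were below 1, and of the other 118 bodies at least as long as the shortest of the 18, 56.8% were below 1. The windows inside the 18 genes, with a mean of 38.3% G and C, were against the expectation from G and C content at 0.987 (0.966 to 1.008). Nrxn3 had the lowest ratio, 0.856 (0.802 to 0.914), from 2085 and 1668 tags. Lrrtm4 was at 0.888 (0.810 to 0.974) and Lrp1b at 0.919 (0.868 to 0.973). Unlike that of the sum, the intervals of single genes were not widened. Ctnna2 was at 1.025 (0.953 to 1.103) over its body, so its low TSS window did not extend over the gene. The TSS windows of these genes had a mean of 39.1% G and C, and all windows of the genome with 36 to 38% and with 38 to 40% had ratios of 0.955 and 0.985.

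The large gene families stayed near 1. Olfactory receptor genes, which encode odorant receptors and here include pseudogene records, lay in 563 windows with a ratio of 1.005 (0.983 to 1.027), and vomeronasal receptor genes, which encode pheromone receptors, lay in 265 windows, of which the 201 with enough input tags had a ratio of 0.999 (0.960 to 1.039). Zinc finger genes lay in 297 windows with 1.006 (0.980 to 1.032). Genes with a symbol of Rpl or Rps and a number lay in 133 windows with 0.976 (0.940 to 1.012), and these were ribosomal protein genes, many pseudogene records of them and a few others such as the kinase gene Rps6ka1. Against the expectation from G and C content, olfactory receptor windows were at 1.028 (1.006 to 1.051) and Rpl and Rps windows at 0.954 (0.920 to 0.990).

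Deposited boundaries of regions rich in histone methylation in MEF and of lamina domains were used to class windows. The lamina domains were mapped in human fibroblasts and transferred to mm9 by the authors. H3K4me3 marks active promoters, H3K36me3 the bodies of transcribed genes and H3K27me3 genes repressed by Polycomb, while lamina domains lie at the nuclear envelope and are poor in active genes.

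Windows wholly covered by H3K27me3-rich regions had a ratio of 1.025 (1.021 to 1.029) and windows without any 0.979 (0.975 to 0.982), over 10224 and 18215 windows. The contrast was 1.047 (1.042 to 1.053), and 1.010 (1.004 to 1.016) against the expectation from G and C content. Windows wholly covered by H3K36me3-rich regions were at 0.991 (0.985 to 0.997) and windows without any at 1.000, over 4547 and 31844 windows. The contrast was 0.990 (0.984 to 0.997), and 0.968 (0.961 to 0.974) against the expectation from G and C content.

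Both marks were also used at once, where mostly means over more than 50% of the window. Windows mostly covered by H3K36me3 but not by H3K27me3 numbered 6954 and had a ratio of 0.984 (0.979 to 0.989), and 0.973 (0.968 to 0.978) against the expectation from G and C content. Windows mostly covered by H3K27me3 but not by H3K36me3 numbered 17015 and had a ratio of 1.019 (1.016 to 1.023), and 1.008 against the expectation. Windows fully in H3K4me3-rich regions had 1.015 (1.007 to 1.023) times the ratio of windows without any, and 0.988 (0.980 to 0.996) times against the expectation.

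The 17519 windows wholly inside lamina domains had a ratio of 0.990 (0.987 to 0.994) and the 27117 windows wholly outside 1.005 (1.003 to 1.008). The ratio inside was 0.985 (0.981 to 0.989) times that outside. Against the expectation from G and C content the contrast was 1.002 (0.998 to 1.007). Mean G and C content was 40.4% inside and 42.9% outside.

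At the scale of 50 kb, windows with NFI palindromes could not be told from the rest at this depth. The 149 windows with an exact palindrome had 10638 wild-type and 9957 knock-out tags and 1.002 (0.966 to 1.039) times the ratio of the other windows. Of the 149 windows, 67 were below 1, where 50.2% of all windows were. Counting palindromes with up to 1 mismatch at the 12 fixed positions, windows with none, 1 and 2 had ratios of 1.000, 1.001 and 1.012 (0.987 to 1.038). The 10 windows with 3 or more had 0.963 (0.832 to 1.115).

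Close to the palindromes the libraries did differ. Within 150 bp of the 150 exact palindromes of chromosomes 1 to 19 the wild-type library had 288 tags, the knock-out library 178 and the input 78, and the ratio was 0.661 (0.517 to 0.846). Relative to input this was 4.54 in the wild-type and 3.01 in the knock-out library, so tags were above input in both. The ratio was 0.814 (0.654 to 1.014) from 150 to 500 bp and 1.148 (0.894 to 1.474) from 500 to 1000 bp. From 10 to 25 kb it was 1.005 (0.958 to 1.053).

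Palindromes with 1 mismatch, 5512 in number, had the same direction with a smaller size. Within 150 bp they had 4374 wild-type and 3734 knock-out tags and a ratio of 0.914 (0.862 to 0.968), with 1.84 and 1.68 relative to input. From 150 to 500 bp the ratio was 0.987 (0.944 to 1.032), and over the whole 25 kb it was 1.000 (0.994 to 1.006). Of the 143 exact palindromes considered for display, 77 had fewer knock-out than wild-type tags after depth scaling and 18 had no ChIP tag within 150 bp. The same shares were not computed for other stretches of the genome, so these counts are a description only. The ratio within 150 bp of exact palindromes ranged from 0.595 to 0.697 when the strand, mismatches, count limit or run was changed. A run here is a group of reads whose names start alike.

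**Figure D4:**
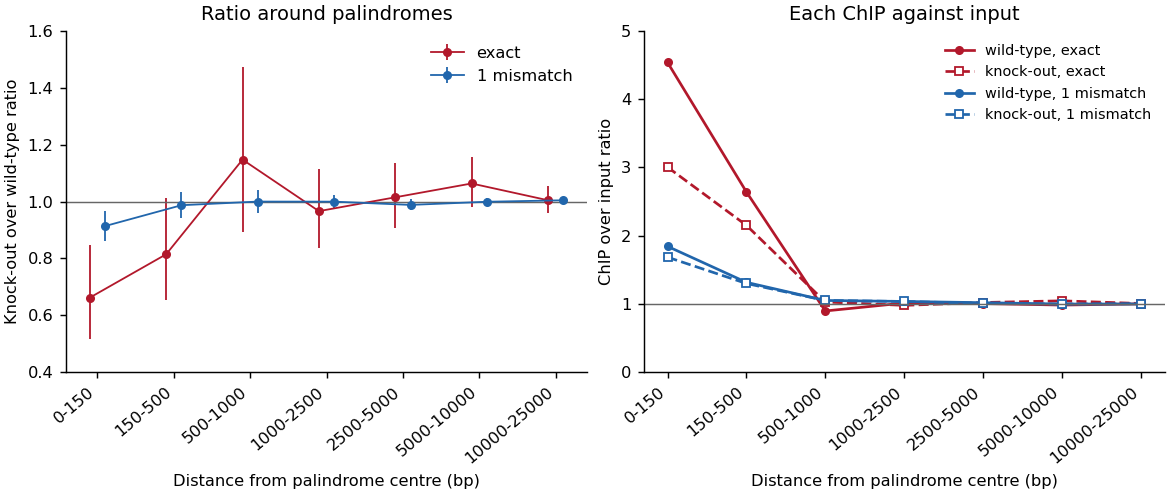
Left, knock-out over wild-type ratio of NFI ChIP tags on the y axis against distance from the centre of exact palindromes (150) and palindromes with 1 mismatch (5512) on the x axis, with widened 95% intervals. Right, depth-scaled ratio of each ChIP library to input for the same distances, which within 150 bp of exact palindromes was 4.54 in the wild-type and 3.01 in the knock-out library.

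The in vivo sites that the authors deposited were chosen on the wild-type tags, so fewer knock-out tags at them follow in part from the choice and are given as a description. The 22741 windows without a deposited site had a ratio of 1.047 and the 3260 windows with 3 or more had 0.913. Windows with 1 and 2 sites were at 0.990 and 0.949.

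Tags that differ from the reference were also compared. Among distinct tags, 8.50% of wild-type, 8.01% of knock-out and 13.0% of input tags had 1 or 2 mismatches, where each distinct tag is the read with fewest mismatches on its base and strand. Counting every uniquely mapped read, the order of the ChIP libraries was the opposite, with 17.4% in the wild-type, 20.5% in the knock-out and 16.1% in the input. By base composition the share among distinct tags increased from 5.66% below 36% G and C to 17.3% at 54% or more in the wild-type ChIP, from 7.51% to 10.7% in the knock-out ChIP, and it decreased from 14.4% to 11.7% in the input. The share was higher in the knock-out library in 975 of the 2369 blocks and in the wild-type library in 1394. The Spearman correlation of the difference with the G and C content of the block was -0.772 over 2369 blocks, as a description.

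The shares also differed between runs of 1 library, which are groups of reads told apart by the start of their names. The labels name no runs but 3 flow cell channels per library, while the input had 2 such groups. Among uniquely mapped reads they were 25.2%, 17.2% and 15.4% in the 3 runs of the wild-type ChIP, 14.9%, 21.1% and 22.2% in the 3 runs of the knock-out ChIP, and 14.5% and 17.3% in the 2 runs of the input, so the runs of both ChIP libraries overlapped. Within the first run of each library alone, the contrast of windows rich in G and C against windows poor in G and C was 1.122. With perfect matches only it was 1.154, larger than the 1.093 found with all tags.

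**Figure D5:**
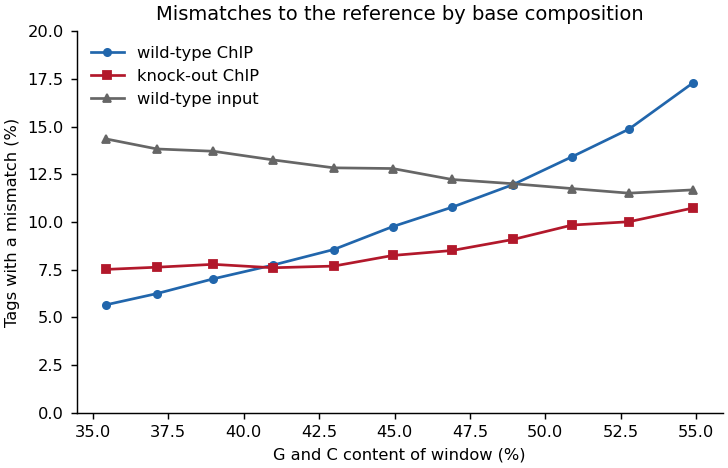
Share of distinct tags with 1 or 2 mismatches to the reference, in percent on the y axis, against mean G and C content of windows in bins of 2% on the x axis, for both ChIP libraries and the input. The wild-type share ran from 5.66% to 17.3% and the knock-out share from 7.51% to 10.7%.

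The blocks around Nfic on chromosome 10 are given as a description, and whether they differ from other blocks was not tested. The block from 80 to 81 Mb, which holds Nfic, had 1578 wild-type and 1528 knock-out tags and a ratio of 1.036 (0.965 to 1.113), with mismatches in 15.9% of wild-type, 11.5% of knock-out and 11.5% of input tags. Over the 11 blocks from 75 to 86 Mb the ratio ran from 0.904 to 1.120, and the difference in mismatch share from -4.45 to 2.55 percentage points. Over all blocks that difference ran from -7.24 to 5.05. Intervals of the ratio lay above 1 in the blocks starting at 77, 79 and 83 Mb, and below 1 in that starting at 82 Mb. Of all 2369 blocks, 11.0% had intervals above 1 and 11.1% below.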

How the data were processed

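The authors placed reads on mm9 with ELAND and deposited, for every read, the match code, counts of matches, position, strand and mismatches, without normalization. They also deposited in vivo sites and domain boundaries. The aligner's version is not given in the sources used here. Reads with a unique match were placed at their 5′ end, taking 32 aligned bases, a length inferred here from the mismatch positions and the reference, and of reads on the same base and strand 1 was kept, the 1 with fewest mismatches. Reads whose names start alike were taken as runs (3, 3 and 2) and pooled. The labels give 3 flow cell channels per library and name no runs.

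Windows of 50000 bp with 20 or more input tags were compared. Ratios were divided by the ratio of tag totals. Intervals are exact binomial (Clopper-Pearson) and not widened for single windows, blocks and genes. For classes and chromosomes the intervals are normal on the log scale and widened 1.32 times. All intervals cover counting error only, and polymerase chain reaction reads without identifiers are not independent molecules. Expected knock-out tags came from bins of 1% G and C. Genes came from GENCODE vM1 on the same build, with 1 record per symbol.

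Named windows were the 6 with the highest lower bound and the 6 with the lowest upper bound of the ratio, and blocks the 5 at each end. Counts of windows on 1 side of 1 within the named blocks follow in part from this choice. The members and gene lists were chosen with earlier results of these data known. The ratio, its exact interval and the spread were tested on simulated counts that had counting error only, unlike the real windows. The widened intervals and the expectation from G and C content were not simulated. The tools were pandas 2.3.3, pysam 0.24.0, NumPy 2.4.6, SciPy 1.17.1 and matplotlib 3.10.9 in Python 3.11.15. Chromosome X and Y tags were not analysed here.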

Additional observations from a re-analysis of the deposited data

How the results depend on the processing

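With every uniquely mapped read counted, the ratio of gene-free windows against windows with 4 or more TSS was 0.882 in place of 0.993, the windows past 2-fold were 1005 in place of 276 and 38.6% in place of 48.9% of them were higher in the knock-out library. Under the same setting the highest over the lowest chromosome was 1.068 (chromosomes 7 and 3) in place of 1.044, the SD of 1 Mb log2 ratios 0.166 in place of 0.0943, the lamina contrast 0.946 in place of 0.985 and the contrast by G and C content 1.315 in place of 1.093. With perfect matches only, windows of ratio 1/2 or less numbered 215 in place of 141, and the values were 0.959 for gene content, 0.107 for the SD, 0.974 for the lamina and 1.154 for G and C. With the first run only, there were 2782 windows past 2-fold and an SD of 0.129, where counting error alone gives 0.0984. That setting gave a lamina contrast of 0.977 and a G and C contrast of 1.122. Tags of the plus or minus strand alone gave 640 and 647 windows past 2-fold and SDs of 0.101 and 0.102. Windows past 2-fold numbered 178 with 50 or more input tags, 521 with no minimum, 12 of 100 kb and 4345 at a fold of 1.5, where the larger windows held more tags each and the lower fold is the looser limit. Windows shifted by 25 kb gave 0.978 (0.965 to 0.991) for gene content. It was 0.983 (0.974 to 0.992) with TSS of all annotated genes and 0.981 (0.974 to 0.987) with windows of 100 kb. These intervals, not widened, left out 1, where that of the reported 0.993 included it. Against the expectation from G and C content, chosen after seeing the data like all settings of the G and C contrast and of the tags near palindromes, gene content was at 1.036 and the lamina contrast at 1.002 (0.998 to 1.007), an interval that included 1. With intervals widened by the variance of 1 Mb and 5 Mb blocks, also chosen after seeing the data, 5 and 3 chromosomes in place of 6 had an interval that left out 1. The cause of these changes was not tested. The other settings kept values within the interval of the reported value, or within 1.5 times the reported count. In every setting of the 8 applied to chromosomes, except every read counted, chromosomes 8 and 12 were the highest and the lowest. No paired analysis was possible because each condition had 1 library.

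A 50 kb window with 67.7 and 63.3 tags on average does not resolve ratios close to 1. Differences between the 2 ChIP libraries in genotype, preparation, sequencing and read redundancy cannot be told apart.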
